A study of Mus musculus with 6 samples.

Results

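The genes described here are the EGF family ligands Areg, Ereg, Hbegf, Tgfa, Btc, Epgn and Egf and the receptors Egfr, Erbb2 and Erbb3, 10 genes of the 55401 in the deposited count tables, picked by matching gene identifiers to these symbols. They were measured in polyadenylated RNA of primary mouse cholangiocytes, the epithelium of the bile ducts. The libraries came from WT mice and from mice labelled PLD, an abbreviation that the series title gives as polycystic liver disease, in which bile ducts grow into fluid-filled cysts. Both groups were sampled 3 months after tamoxifen, and each has 3 libraries. Cells were released from the digested biliary tree and captured with an EpCAM antibody on magnetic beads. No source used here gives the altered gene, the Cre driver, the strain, the sex, the age or the number of mice behind a library. P-values therefore measure the spread between libraries, which may be technical.

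EGF family ligands are made as membrane-anchored precursors and are released by proteases such as ADAM17. They bind EGFR, and heparin-binding EGF-like growth factor, betacellulin and epiregulin also bind ERBB4. Ligand binding pairs the receptors, and ERBB2, which has no known ligand of its own, and ERBB3, whose kinase is impaired and which binds neuregulins, act mainly as partners that pass the signal to the RAS-MAPK and PI3K-AKT pathways. In bile ducts and in cyst-lining epithelium, EGFR signalling is known as a growth stimulus.

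The libraries held 15768561 to 16710548 counted reads. The limit that a count of 0 allows, 3 reads, corresponds to 0.180 to 0.190 counts per 1000000 counted reads before TMM scaling, which covers counting error only. All CPM given are counts per 1000000 counted reads, scaled by TMM factors. Replicate 1 stood apart from the other two libraries of its group in both groups, with log2 CPM correlations of 0.976 and 0.973 against 0.991 between PLD replicates 2 and 3, and of 0.972 and 0.980 against 0.988 between WT replicates 2 and 3. The summed level of 14 cholangiocyte markers was 9481 to 13837 CPM in WT and 32392 to 44930 CPM in PLD, and 12 of these markers rose and 1 fell. The 12 endothelial markers all fell, from summed levels of 6948 to 8871 CPM in WT to 515 to 929 CPM in PLD. Of 13 fibroblast, stellate and smooth muscle markers, 11 fell, from 8291 to 13499 CPM to 1733 to 4565 CPM. Hepatocyte markers summed to 1388 to 2411 CPM in WT and 2307 to 6942 CPM in PLD, with 3 of 12 higher and 6 lower. In such bulk libraries, fewer cells of a type and less RNA per cell cannot be told apart, and the part of these marker shifts in the differences below was not tested.

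Areg, Ereg, Epgn and Btc lie together on mouse chromosome 5 (mm10), in 376 kb from 91027464 to 91402994. Epgn, Ereg and Areg are on the plus strand, and Btc is on the minus strand beyond a gap of 209 kb. The other 3 annotated genes of the interval are predicted genes with at most 14 reads in any library. RefSeq (GRCm38.p6) start-site windows of 300 bases, 250 before and 50 from the start site on, were matched for 7 of the 10 genes, with 8 windows in all. The windows of 4 members that were higher in PLD on the CPM scale are shown because they let the neighbouring genes Areg and Btc be compared with each other and with 2 members on other chromosomes. Areg is at chr5:91139349-91139648 (plus strand), Btc at chr5:91402945-91403244 (minus strand), Tgfa at chr6:86194972-86195271 (plus strand) and Erbb2 at chr11:98412234-98412533 (plus strand). They are written 5′ to 3′ in the direction of transcription, and capitals mark a match to any of 4 searched motifs.
Areg: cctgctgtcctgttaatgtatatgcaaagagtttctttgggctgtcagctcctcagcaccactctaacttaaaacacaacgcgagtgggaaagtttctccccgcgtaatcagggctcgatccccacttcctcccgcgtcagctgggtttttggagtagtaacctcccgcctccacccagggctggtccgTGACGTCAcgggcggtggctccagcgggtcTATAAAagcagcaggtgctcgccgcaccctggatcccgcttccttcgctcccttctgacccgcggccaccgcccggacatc
Btc: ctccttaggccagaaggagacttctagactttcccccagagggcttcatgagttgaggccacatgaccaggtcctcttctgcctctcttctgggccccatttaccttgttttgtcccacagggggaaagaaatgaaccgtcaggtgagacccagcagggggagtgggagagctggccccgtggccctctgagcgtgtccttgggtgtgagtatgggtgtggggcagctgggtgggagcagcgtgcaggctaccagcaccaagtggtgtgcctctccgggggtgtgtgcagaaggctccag
Tgfa: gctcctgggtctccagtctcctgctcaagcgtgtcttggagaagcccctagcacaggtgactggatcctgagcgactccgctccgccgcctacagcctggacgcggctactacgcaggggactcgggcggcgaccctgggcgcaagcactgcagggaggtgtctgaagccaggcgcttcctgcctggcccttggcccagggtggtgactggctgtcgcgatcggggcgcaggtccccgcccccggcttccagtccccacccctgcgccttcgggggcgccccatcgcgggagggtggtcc
Erbb2: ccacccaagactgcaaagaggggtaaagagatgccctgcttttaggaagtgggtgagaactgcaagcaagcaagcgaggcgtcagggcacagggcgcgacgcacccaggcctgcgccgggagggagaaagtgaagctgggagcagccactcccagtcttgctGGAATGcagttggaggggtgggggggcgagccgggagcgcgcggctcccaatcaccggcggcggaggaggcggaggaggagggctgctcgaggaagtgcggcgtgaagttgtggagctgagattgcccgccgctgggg
The motifs searched, on both strands, were the cAMP response element TGACGTCA, which reads the same on both strands, the AP-1 element TGACTCA with its reverse complement TGAGTCA, the TEAD element GGAATG with CATTCC and the TATA box TATAAA with TTTATA. No motif match shown here overlaps another. Areg held a cAMP response element 61 bases and a TATA box 31 bases before its start site. The cAMP response element occurs in 1.79% and the TATA box in 13.6% of the 32851 windows in the table. Epgn, which had almost no reads, also held a TATA box, 86 bases before its start site. The Btc and Tgfa windows held none of the 4 motifs. Erbb2 held a TEAD element 88 bases before its start site, a motif present in 14.7% of windows, and the AP-1 element, present in 5.20% of windows, was in none of the 8 member windows. A match describes letters in a window and not binding.

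Amphiregulin, heparin-binding EGF-like growth factor, betacellulin and TGF-alpha transcripts were higher on the CPM scale in PLD than in WT libraries of the captured cells. So were those of the receptors ERBB2 and ERBB3. Areg changed by far the most, 35.6-fold on that scale. Relative to Epcam reads, Areg alone among the tested members had all PLD values above all WT values. Epiregulin, encoded 46.0 kb from Areg, did not follow its neighbour. Of the 10 genes, 9 had enough reads to be tested, 6 passed the edgeR quasi-likelihood test (adjusted p below 0.05 over 15334 genes) as higher in PLD and 0 as lower, and Ereg, Egf and Egfr did not pass. For comparison, 27.0% of all tested genes were higher and 28.4% lower by this test, 55.4% in either direction. The median log2 fold change was 0.94 over the 9 tested members and 0.01 over all tested genes. The 6 called members were also those whose 3 PLD libraries lay above all 3 WT libraries, an arrangement found in 33.0% of tested genes, while 33.2% had all PLD libraries below WT and 66.2% had no overlap in either direction. Without the replicate 1 libraries of both groups the same 6 members passed, with log2 fold changes of 5.15 for Areg, 1.43 for Btc, 1.20 for Hbegf, 1.17 for Erbb3, 0.87 for Erbb2 and 0.58 for Tgfa.

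**Figure D1:**
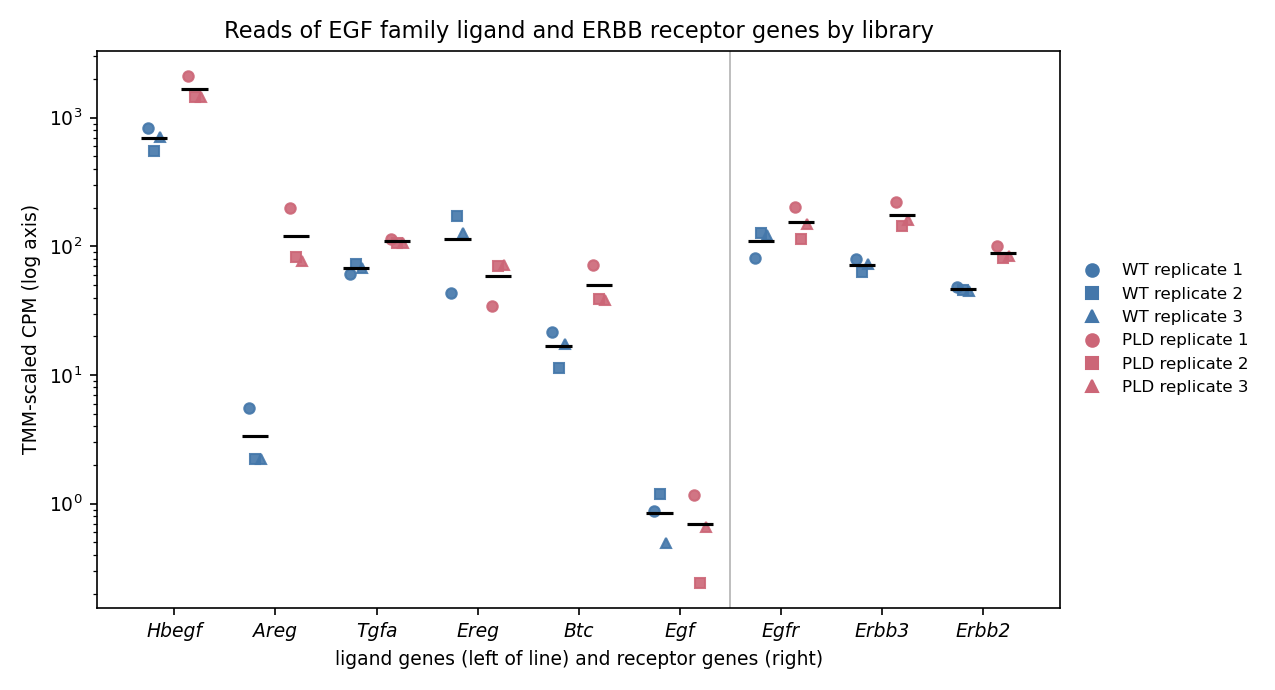
TMM-scaled CPM (log axis) of the 9 tested members in each of the 3 PLD and 3 WT libraries, with points for libraries and horizontal lines for group means. The PLD points of Areg, Hbegf, Tgfa, Btc, Erbb2 and Erbb3 lie above all WT points on this scale, while those of Ereg, Egf and Egfr overlap.

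Areg (ENSMUSG00000029378.5, chromosome 5, 91139599 to 91148432, plus strand) encodes amphiregulin, a low-affinity EGFR ligand made by many epithelia. It had 2877, 1356 and 1280 reads in PLD replicates 1 to 3 and 94, 38 and 36 reads in WT replicates 1 to 3. These are 198, 82.7 and 76.9 CPM in PLD and 5.55, 2.24 and 2.22 CPM in WT. Replicate 1 was the highest library of either group, and the groups were far from overlapping, the lowest PLD value being 13.9 times the highest WT value. The log2 fold change was 5.15 ± 0.53 (SE; adjusted p = 0.00025, edgeR), and 24 of the 15334 tested genes had a higher one. Without PLD replicate 1 it was 4.58, without WT replicate 1 it was 5.73, and without both it was 5.15. Mast cells, basophils and type 2 lymphoid cells also make amphiregulin. Their 9 markers summed to 5.58 to 13.5 CPM in PLD and 8.83 to 11.2 CPM in WT. None of the 3 that could be tested passed, with log2 fold changes of 0.55 for Il1rl1, −0.49 for Gata3 and −0.33 for Il7r. The other 6 were under 1 CPM in every library. Among these, the mast cell genes Cpa3, Fcer1a, Ms4a2, Cma1 and Mcpt4 were at 0 in all PLD libraries and had 0 to 11 reads in each WT library. Mcpt8 had 1 read in PLD replicate 2 and 0 in the other libraries. The part of such cells in the Areg values was not tested.

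Hbegf (ENSMUSG00000024486.6, chromosome 18, 36504927 to 36515805, minus strand) encodes heparin-binding EGF-like growth factor, a ligand of EGFR and ERBB4. Its levels were 2103, 1458 and 1437 CPM in PLD and 834, 552 and 705 CPM in WT. All PLD libraries were above all WT libraries, and replicate 1 was again the highest in each group. Hbegf was 2.39-fold higher on the CPM scale, a log2 fold change of 1.26 ± 0.22 (adjusted p = 0.00215, edgeR).

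Btc (ENSMUSG00000082361.6, chromosome 5, 91357261 to 91402994, minus strand) encodes betacellulin, which like heparin-binding EGF-like growth factor binds EGFR and ERBB4. Its levels were 71.9, 38.9 and 38.5 CPM in PLD and 21.7, 11.3 and 17.5 CPM in WT. The groups did not overlap, and replicate 1 was the highest of both. Its log2 fold change was 1.57 ± 0.32 (adjusted p = 0.00454, edgeR) on the CPM scale.

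Tgfa (ENSMUSG00000029999.14, chromosome 6, 86195223 to 86275719, plus strand) encodes TGF-alpha, a ligand of EGFR. It had 115, 106 and 106 CPM in PLD and 61.2, 73.2 and 68.3 CPM in WT. Its libraries were the closest within a group of all tested ligands, and the groups did not overlap. The log2 fold change was 0.69 ± 0.10 (adjusted p = 0.00104, edgeR) on the CPM scale.

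Ereg (ENSMUSG00000029377.5, chromosome 5, 91074622 to 91093646, plus strand) encodes epiregulin, a ligand of EGFR and ERBB4 that is expressed by many stromal and epithelial cells. It had 34.2, 70.7 and 71.3 CPM in PLD and 43.0, 172 and 126 CPM in WT. The groups overlapped through WT replicate 1, and replicate 1 was the lowest library of each group, the reverse of Areg. The log2 fold change was −0.95 ± 0.48 (adjusted p = 0.13, edgeR). Without WT replicate 1 Ereg passed as lower in PLD at −1.34 (adjusted p = 0.0111), and without replicate 1 of both groups at −1.07 (adjusted p = 0.000259). The summed fibroblast, stellate and smooth muscle markers had the same lowest libraries, at 1733, 3649 and 4565 CPM in PLD and 8291, 13499 and 11460 CPM in WT. So did the summed endothelial, hepatocyte, macrophage and mesothelial markers, so this order is not particular to 1 cell type. The part of any of these cell types in the Ereg values was not tested.

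The remaining ligands were near the limit of detection. Egf (ENSMUSG00000028017.7, chromosome 3), which encodes the founding ligand of the family, had 17, 4 and 11 reads in PLD and 15, 20 and 8 in WT. The groups overlapped and the log2 fold change was −0.32 ± 0.56 (adjusted p = 0.649, edgeR), turning to 0.10 without PLD replicate 2. Epgn (ENSMUSG00000035020.11, chromosome 5), which encodes epigen, had 1 read in PLD replicate 3, 2 reads in WT replicate 3 and 0 in the other libraries, and was not tested.

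Levels of different genes were compared as TMM-scaled reads per kilobase of exon per 1000000 counted reads (RPKM). Hbegf was the most abundant ligand in every library, at 345 ± 78.3 RPKM in PLD and 144 ± 29.2 RPKM in WT (mean ± SD, n = 3 throughout). In WT it was followed by Ereg at 27.6 ± 15.9 RPKM, Tgfa at 10.4 ± 0.928 RPKM, Btc at 3.72 ± 1.16 RPKM and Areg at 2.75 ± 1.57 RPKM. The ranges of the neighbours Ereg and Tgfa overlapped in WT, where WT replicate 1 had 10.4 and 9.44 RPKM of them, and so did those of Btc and Areg. Within each WT library, however, Ereg was above Tgfa and Btc above Areg. In PLD the order was Hbegf, Areg at 98.1 ± 56.3 RPKM, Tgfa at 16.8 ± 0.775 RPKM, Ereg at 14.2 ± 5.14 RPKM and Btc at 11.0 ± 4.24 RPKM. In PLD, Ereg overlapped both Tgfa and Btc, whereas every Tgfa value was above every Btc value and every Areg value above all of theirs. Egf stayed at 0.0614 ± 0.0412 RPKM in PLD and 0.0756 ± 0.0305 RPKM in WT.

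The make-up of the ligand transcript pool thus differed, as shares within a library, which do not depend on the scaling of libraries. Areg made up 25.5%, 16.5% and 15.7% of the summed per-length ligand level in PLD and 2.26%, 1.07% and 0.950% in WT. Ereg made up 1.30%, 4.16% and 4.29% in PLD and 5.16%, 24.3% and 15.9% in WT, so that its shares did not overlap between the groups either. Tgfa shares were also lower in each PLD library, at 2.76% to 4.05% against 4.68% to 6.57%. Hbegf kept the major share in both groups, 71.7 ± 3.23% in PLD and 75.9 ± 9.48% in WT, with overlapping libraries. Btc shares overlapped as well, at 2.23 ± 0.222% and 1.94 ± 0.465%. The ratio of Areg to Ereg per length was 19.7, 3.98 and 3.66 in PLD and 0.438, 0.0442 and 0.0600 in WT, so Areg exceeded Ereg in every PLD library and Ereg exceeded Areg in every WT library. Without replicate 1, the mean Areg share was 16.1% in PLD and 1.01% in WT. The summed ligand level was 640, 412 and 403 RPKM in PLD and 202, 172 and 193 RPKM in WT. These are descriptions of transcript levels and carry no test.

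**Figure D2:**
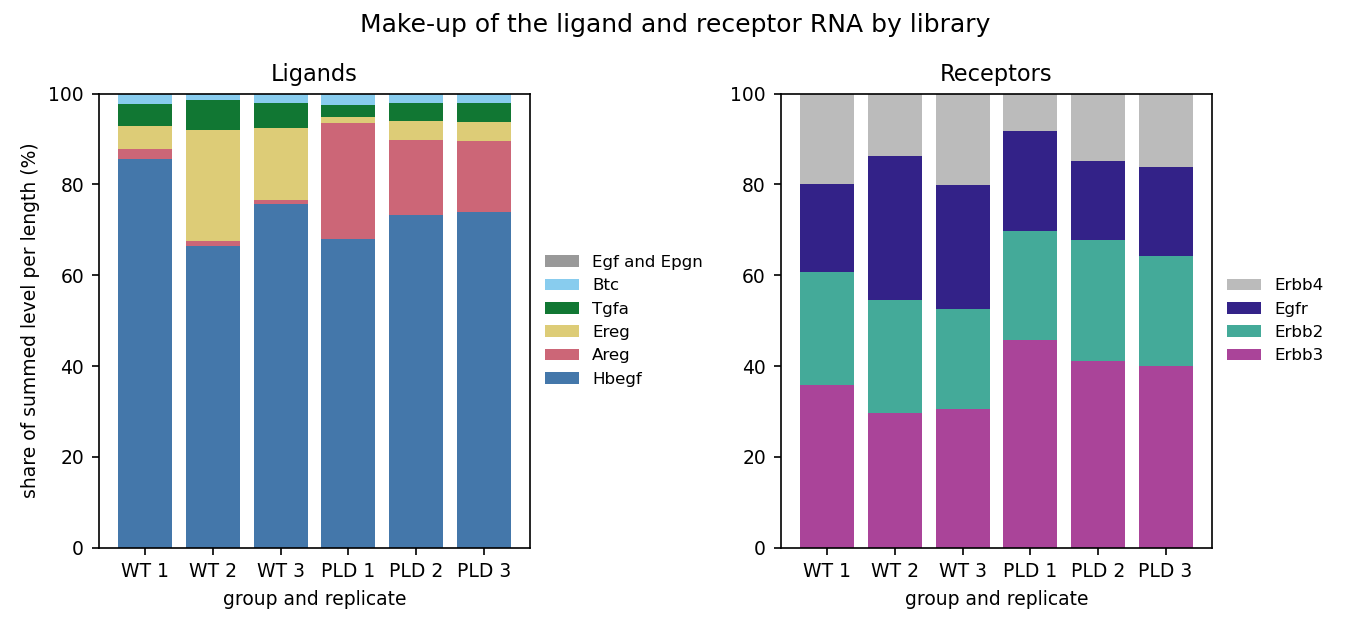
Stacked bars give the share (percent, from 0 to 100) of each ligand in the summed per-length ligand level and of each receptor in the summed level of the 3 receptors and Erbb4, for each of the 6 libraries. Areg takes 15.7% to 25.5% of the ligand level in PLD and 0.950% to 2.26% in WT, and Hbegf takes the major share throughout.

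Among the receptors, Erbb2 and Erbb3 were higher in PLD on the CPM scale, and Egfr was not called. Erbb3 (ENSMUSG00000018166.8, chromosome 10, 128567523 to 128589652, minus strand) had 222, 144 and 161 CPM in PLD and 80.1, 63.1 and 72.5 CPM in WT. The groups did not overlap, and replicate 1 was the highest of both. Erbb3 had a log2 fold change of 1.29 ± 0.18 (adjusted p = 0.000835, edgeR), or 2.45-fold on the CPM scale. ERBB3 is also the neuregulin receptor of Schwann cells, and of 8 Schwann and glial markers 7 fell and 1, S100b, rose. Their summed level was 30.7 to 38.9 CPM in PLD and 56.4 to 108 CPM in WT. The part of such cells in the Erbb3 values was not tested.

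Erbb2 (ENSMUSG00000062312.5, chromosome 11, 98412470 to 98437716, plus strand) had 100.5, 81.2 and 84.7 CPM in PLD and 48.0, 46.0 and 44.7 CPM in WT. The WT libraries lay close together and below all PLD libraries. Erbb2 had a log2 fold change of 0.94 ± 0.11 (adjusted p = 0.000387, edgeR), or 1.92-fold on the CPM scale. Erbb2 shares its last 9 bases with Mien1 on the other strand, which had 1105 reads over the 6 libraries against 6517 for Erbb2, and the counting is not stated to use strand.

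Egfr (ENSMUSG00000020122.16, chromosome 11, 16752203 to 16918158, plus strand) encodes the receptor shared by all 7 ligands. It had 200.5, 115 and 149.8 CPM in PLD and 80.5, 128 and 122 CPM in WT. The groups overlapped, since PLD replicate 2 was below WT replicates 2 and 3. The log2 fold change was 0.49 ± 0.24 (adjusted p = 0.116, edgeR), and without replicate 1 of both groups it was 0.08. The antisense gene Egfros, which overlaps Egfr, had 304 reads in all against 12793 for Egfr.

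Per length, Erbb3 was the most abundant of these receptors in PLD, at 29.2 ± 6.79 RPKM, followed by Erbb2 at 17.0 ± 1.97 RPKM and Egfr at 13.7 ± 3.80 RPKM. The ranges of the last 2 overlapped, but Erbb2 was above Egfr within each PLD library. In WT, Erbb3 at 11.9 ± 1.41 RPKM and Egfr at 9.72 ± 2.28 RPKM overlapped, as did Egfr and Erbb2, the latter at 8.87 ± 0.313 RPKM. Erbb4, the fourth receptor of the family, had 8.71 ± 2.08 RPKM in PLD and 6.73 ± 1.64 RPKM in WT. Erbb3 made up 45.8%, 41.1% and 40.0% of the summed level of the 4 receptors in PLD and 35.9%, 29.6% and 30.7% in WT, without overlap. The Egfr share was 19.7 ± 2.30% in PLD and 26.1 ± 6.42% in WT, and the Erbb2 share was 25.0 ± 1.51% and 23.9 ± 1.75%, and both overlapped. The ratio of Erbb3 to Egfr was 2.08, 2.36 and 2.03 in PLD and 1.87, 0.929 and 1.12 in WT.

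Epcam encodes the surface protein that the beads bind. It was itself higher in PLD, at a log2 fold change of 1.61 ± 0.24 (adjusted p = 0.00107, edgeR), so each member was also set against the Epcam reads of its own library. This divides every gene of a library by the same number, so the differences below are those of the CPM scale moved by the rise of Epcam. Over the 15141 tested genes with reads in every library, the median difference in mean log2 ratio was −1.62, which is the value to read the members against. Areg had 145, 85.0 and 83.6 reads per 1000 Epcam reads in PLD and 14.1, 8.82 and 5.34 in WT. Its ratios in PLD were all above those in WT, an order found in 1.94% of tested genes, with a difference in mean log2 ratio of 3.54 (exact two-sided permutation p = 0.1, the smallest that 3 against 3 libraries can give). Ereg had 25.1, 72.7 and 77.5 reads per 1000 Epcam reads in PLD and 109, 678 and 303 in WT, a difference of −2.44 (exact permutation p = 0.1) without overlap.

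Relative to Epcam reads, 6 of the 9 tested members had all PLD ratios below all WT ratios, namely Ereg, Hbegf, Tgfa, Egf, Egfr and Erbb2. The same order held for 89.0% of all tested genes, so it says nothing particular about these members. Hbegf had 1544, 1499 and 1564 reads per 1000 Epcam reads in PLD and 2116, 2174 and 1692 in WT, a difference of −0.37. The differences were −0.93 for Tgfa, −1.14 for Egfr and −0.69 for Erbb2, each with the exact permutation p at its floor of 0.1. Btc, at 52.8, 39.9 and 41.9 against 54.9, 44.3 and 42.0, and Erbb3, at 163, 148 and 176 against 203, 248 and 174, overlapped between the groups, with differences of −0.07 (exact permutation p = 0.5) and −0.35 (exact permutation p = 0.2). Against the geometric mean of the 14 cholangiocyte markers, the differences were 3.68 for Areg, −2.29 for Ereg, −0.23 for Hbegf, −0.79 for Tgfa, −0.55 for Erbb2 and −0.21 for Erbb3. Against Krt8, a keratin of simple epithelia, the differences were 3.72 for Areg, −0.18 for Hbegf and −0.50 for Erbb2. The Hbegf and Erbb2 libraries then overlapped. The 14 cholangiocyte markers had log2 fold changes from −2.24 for Cftr to 3.68 for Krt7, with a median of 1.59. The size of these differences therefore depends on the marker taken as reference, and only Epcam and Krt8 were used singly.

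**Figure D3:**
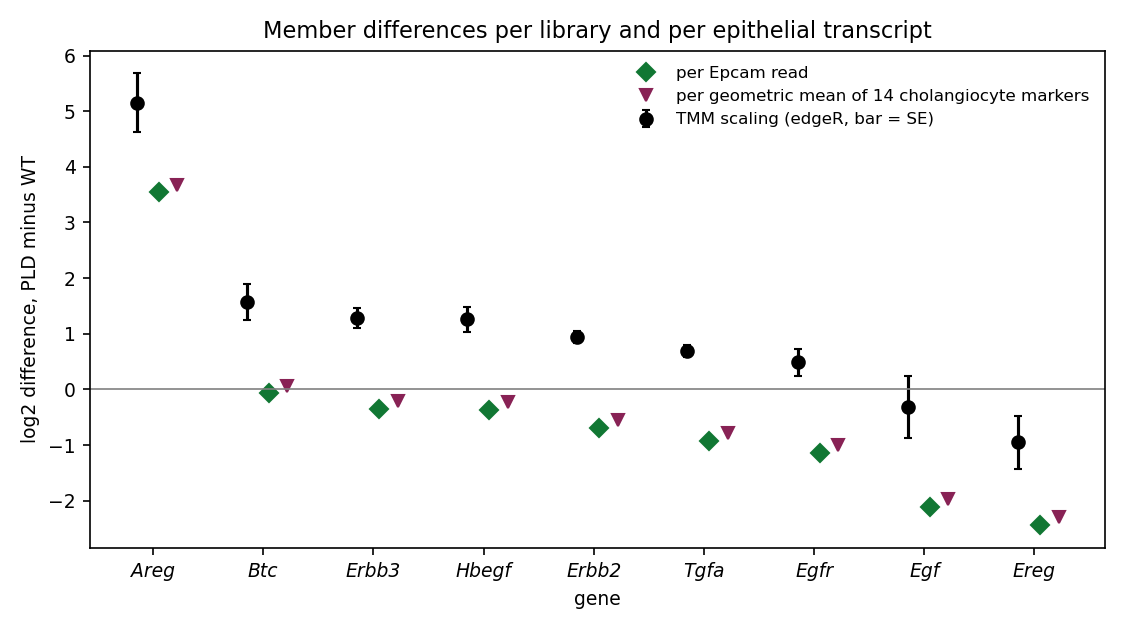
Log2 difference, PLD minus WT (vertical axis), of the 9 tested members on the TMM scale (circles, bars give the SE), relative to Epcam reads (diamonds) and relative to the geometric mean of 14 cholangiocyte markers (triangles), each from 3 libraries per group. Areg stays above 0 on all 3 scales (5.15, 3.54 and 3.68) and each scale moves all members by about the same amount, so that their order is kept.

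Among the genes most like Areg across the 6 libraries, by the distance between centred log2 CPM profiles, were Prss22 at 0.62 and Wnt7a at 0.79. They encode an epithelial serine protease and a Wnt ligand. Prss22 had 79.1, 41.2 and 32.0 CPM in PLD and 2.01, 1.06 and 1.36 CPM in WT, a log2 fold change of 5.09 ± 0.43 (adjusted p = 0.00011, edgeR). Like Areg, Wnt7a was highest in replicate 1 of each group, at 152 CPM in PLD and 3.07 CPM in WT. The genes most like Ereg, the member with the lowest fold change, were Scml4 at 0.42, Pycr1 at 0.60 and Gdf2 at 0.69. Gdf2, which encodes the BMP family ligand BMP9, had 6.54, 13.6 and 17.6 CPM in PLD and 11.8, 53.9 and 38.2 CPM in WT, and its log2 fold change of −1.46 ± 0.55 missed the threshold (adjusted p = 0.054, edgeR). Scml4 and Pycr1 did not pass either. These distances describe 6 libraries that share the group difference.

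Other genes of the pathway did not move in a single direction. The counts of called genes in this and the following lists are to be read beside all tested genes, of which 27.0% were higher and 28.4% lower. Of the neuregulins, the ligands of ERBB3 and ERBB4, Nrg1 fell, with 18.4, 14.5 and 18.7 CPM in PLD and 65.1, 27.7 and 45.8 CPM in WT (log2 fold change −1.43 ± 0.29, adjusted p = 0.00474, edgeR). Nrg4 fell by 1.42 ± 0.39 on the log2 scale, from 1.36 ± 0.118 to 0.499 ± 0.255 CPM (adjusted p = 0.0161), and missed the threshold without PLD replicate 3 (adjusted p = 0.0633), without WT replicate 3 (0.0517) and without both replicate 1 libraries (0.0506). Erbb4 had 82.0, 107 and 134 CPM in PLD and 91.6, 60.0 and 97.7 CPM in WT, overlapping groups (log2 fold change 0.37 ± 0.23, adjusted p = 0.199), and passed as higher only without both replicate 1 libraries (0.61, adjusted p = 0.0268). Nrg2 had a log2 fold change of 0.24 ± 0.61 (adjusted p = 0.75, edgeR), and Nrg3 had 1 read in all. The median over these 4 tested genes was −0.59.

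Of 9 genes of ligand shedding, the step that frees ligands from the membrane, 5 fell and 0 rose, with a median log2 fold change of −0.31. Among all tested genes 28.4% fell and 27.0% rose. The list joins proteases, their partners and an inhibitor, so the count gives no direction of shedding. Adam15 fell by 1.51 ± 0.13 on the log2 scale, from 146 ± 23.2 to 51.2 ± 2.52 CPM (adjusted p = 0.000125, edgeR). Timp3, an inhibitor of ADAM17, fell from 1004 ± 58.2 to 350.3 ± 47.2 CPM (log2 fold change −1.52 ± 0.14), and Adam12 from 8.64 ± 3.67 to 0.781 ± 0.573 CPM (−3.44 ± 0.54). Adam17 itself fell little, from 79.3 ± 4.73 to 64.1 ± 5.35 CPM (log2 fold change −0.31, adjusted p = 0.0335, edgeR). Its call was lost without PLD replicate 1 or 2 or WT replicate 1, 2 or 3, each left out alone. It was also lost without a filter on low counts. Rhbdf1, which encodes the iRhom1 partner of ADAM17, fell by 0.40 ± 0.13 (adjusted p = 0.033) and missed the threshold without PLD replicate 1 or 3 or WT replicate 2 or 3 (adjusted p of 0.0706 to 0.124). Only 3 shedding genes passed without PLD replicate 1, WT replicate 2 or WT replicate 3, each left out alone.

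Of 13 genes that restrain the receptors, 2 rose and 3 fell, with a median of 0.04, and without WT replicate 2 only 1 rose. Cblc, a ubiquitin ligase of the CBL family that acts on activated EGFR, rose from 21.3 ± 3.76 to 72.2 ± 2.41 CPM (log2 fold change 1.76 ± 0.14, adjusted p = 9.09e-05, edgeR). Its relatives Cbl (−0.70 ± 0.11) and Cblb (−1.05 ± 0.22) fell, as did Lrig3 (−2.30 ± 0.19), a gene of the LRIG family of receptor regulators. Of 20 adaptor and RAS-MAPK genes, 7 rose and 3 fell, with a median of 0.13. With single libraries left out, 5 to 7 rose. Then 5 fell without PLD replicate 1, and 2 fell without PLD replicate 2, PLD replicate 3, WT replicate 2 or WT replicate 3. The kinases Map2k1 (0.99 ± 0.13) and Map2k2 (0.54 ± 0.09) rose, and Plcg1, a phospholipase that docks on the receptors, fell (−1.81 ± 0.11).

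Of 12 PI3K-AKT genes, 2 rose and 5 fell, with a median of −0.06, and 1 rose without WT replicate 3 and 3 without PLD replicate 1. The insulin receptor substrate Irs1 (−1.80 ± 0.24) and the regulatory subunits Pik3r3 (−1.03 ± 0.17) and Pik3r1 (−0.66 ± 0.12) fell. Of 10 genes that MAPK signalling is known to induce, 6 rose and 3 fell, with a median of 0.65. With single libraries left out, 5 to 6 rose. Then 1 fell without PLD replicate 2, WT replicate 2 or WT replicate 3, and 2 fell without PLD replicate 3. Dusp4 (2.72 ± 0.28), Phlda1 (1.01 ± 0.14) and Dusp6 (0.68 ± 0.10) rose, and Spry4 (−1.29 ± 0.10), which like the DUSP phosphatases is a feedback inhibitor of ERK signalling, fell. Endothelial and stromal markers fell in the same libraries, as given above, and their part in the counts of these lists was not tested.

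**Figure D4:**
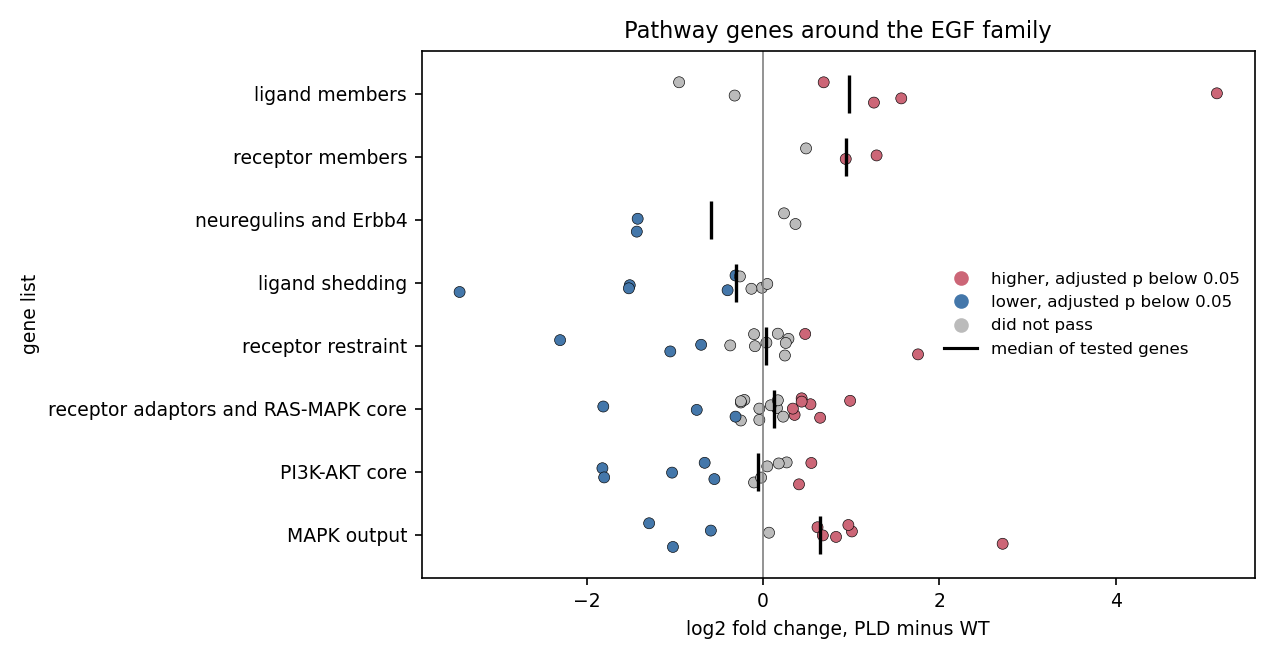
Log2 fold change (PLD minus WT, horizontal axis) of every tested gene of the member and pathway lists, 1 row a list, with a vertical mark at each list's median and colour for genes that passed the test. The tested ligands and receptors lie mostly to the right of 0 on the CPM scale, and the shedding genes to the left.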

How the data were processed

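RNA of 6 libraries, 3 per group as the labels give them, was analysed from the deposited gene counts, which the authors made with featureCounts 1.6.0 on GENCODE vM25 (mm10), per the file headers. These name no option for strand, pairs, multi-mapped or overlapping reads. STAR 2.7.4a is named in the submitters' processing notes. Of the 55401 gene identifiers, 55141 were matched to symbols and 260 kept their identifier. Here edgeR 4.0.16 (R 4.3.3) was run with TMM factors (0.922 to 1.04), its filter on low counts by group and quasi-likelihood F tests, adjusted by the Benjamini-Hochberg method over 15334 genes, two-sided, with a threshold of 0.05. RPKM used the exon lengths in the files. Ratios to Epcam were tested by exact permutation over libraries. The script was tested on simulated data.

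The members and gene lists were chosen with earlier results of these data known. All members were named, together with up to 4 genes of the smallest p in each pathway list and, outside this rule, Adam17. Some genes that this rule or the likeness rule names are not reported here. Further marker lists gave these counts. For macrophages 1 of 10 genes rose, for neutrophils 2 of 5 tested fell, for T, NK and B cells 1 of 4 tested rose and 1 fell, and for mesothelium 4 of 5 tested fell. Alternatives were DESeq2 1.42.0, limma-voom (limma 3.58.1), other scaling factors and filters, a robust fit, a replicate block and leaving out libraries. Profiles of like genes used log2 CPM with a prior count of 2 and 6 libraries.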

Additional observations from a re-analysis of the deposited data

How the results depend on the processing

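Areg, Hbegf, Tgfa, Btc, Erbb2 and Erbb3 kept their direction and their call in all 15 alternatives, with the highest adjusted p between 0.00247 (Areg) and 0.02 (Btc). Egfr stayed above the threshold in all 15, at 0.0539 to 0.62, with log2 fold changes of 0.08 to 0.68. Members lower in PLD numbered 0 to 1 when each library was left out in turn, 1 with the replicate block and 1 without PLD replicate 1 and WT replicate 1, an alternative chosen after seeing the data, and the 1 was Ereg each time.

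The replicate block gave Ereg −0.82 (adjusted p = 0.0115) and 3920 genes higher and 4242 lower, against 4136 and 4357 without it. Deviations from group means correlated at 0.156, 0.036 and 0.061 between same-numbered libraries, so the numbers were not taken to pair them. As a hint from the data, PLD replicate 2 correlated best with WT replicate 3 (0.122) and PLD replicate 3 with WT replicate 2 (0.099).

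With single libraries left out, genes lower numbered 1 to 2 for neuregulins and Erbb4, 3 to 5 for ligand shedding, 2 to 5 for adaptors and RAS-MAPK, and 1 to 3 for MAPK output. Genes higher numbered 1 to 2 for receptor restraint, 5 to 7 for adaptors and RAS-MAPK, 1 to 3 for PI3K-AKT and 5 to 6 for MAPK output. Without both replicate 1 libraries, neuregulins and Erbb4 had 1 gene higher and 1 lower, adaptors and RAS-MAPK had 5 lower and PI3K-AKT had 3 higher. Without a filter on low counts, ligand shedding had 3 lower and adaptors and RAS-MAPK had 2 lower. The upper-quartile factors gave 3 higher for receptor restraint.

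Signs turned for values that were not called. With single libraries left out, Egf ranged from −0.90 to 0.10 (positive without PLD replicate 2), and Nrg2 from −0.18 to 1.03 (negative without PLD replicate 2 or WT replicate 2). The Btc ratio to Epcam ranged from −0.19 to 0.05 (positive without PLD replicate 2 or WT replicate 1), and against the cholangiocyte list and Krt8, the latter chosen after seeing the data, it was 0.07 and 0.12. The cause of these changes was not tested. TPM in place of RPKM moved all genes by −0.25 (log2, PLD minus WT) and left the shares as they were. Depth limits Egf and Epgn, and the exact permutation tests cannot go below p = 0.1.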
